A study of Mus musculus with 24 samples.

Results

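The miR-199 and miR-214 rows of a serum extracellular vesicle (EV) miRNA count table comprised mmu-miR-199a-3p, mmu-miR-199a-5p, mmu-miR-199b-3p, mmu-miR-199b-5p, mmu-miR-214-3p and mmu-miR-214-5p. They were taken by name and are 6 of the 1966 mature miRNAs in the table. They were selected on their levels in these same libraries, which were known when the names were chosen. Their levels across groups are therefore given as a description. Of the 6, 4 had at least 10 CPM (counts scaled to a library total of 1000000) in at least 12 of the 24 libraries and entered the fit across all 252 miRNAs that did so.

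The study asked how the cargo of circulating EVs changes after orthopedic surgery. The groups were Control, S6h, S24h and S72h, each with 6 wild-type male C57BL/6 mice aged 14 to 16 weeks and 1 library per mouse. Surgery mice received an open tibia fracture with a pin under isoflurane and buprenorphine, and blood was taken 6, 24 or 72 h later. S24h and S72h mice also received daily analgesia, and Control mice received saline without surgery. The Control mice were handled with the S6h mice, and the separate controls of the later times are not in the table. Time after surgery and handling therefore cannot be told apart for S24h and S72h against Control. The paper reports no statistical difference between its control sets, which cannot be recomputed here. No group had anesthesia without surgery, so surgery, isoflurane and buprenorphine cannot be told apart in any comparison with Control. The EVs were precipitated from serum of clotted blood, a step in which platelets are activated and shed vesicles.

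Total counts per library ranged from 63956 to 471801. The median was 117579 in Control, 177468 in S6h, 75030 in S24h and 94428 in S72h. A count of 0 allowed a level of up to 6.36 CPM in the deepest library and 46.9 CPM in the shallowest, taken at 3 counts. These limits and the intervals below cover counting error only.

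As background, a miRNA hairpin is cut into a duplex whose strands, the 5p and the 3p arm, can each be loaded into Argonaute, and the loaded arm pairs with target mRNAs mainly through its seed. The miR-199 and miR-214 genes are expressed in connective tissue lineages such as fibroblasts, chondrocytes and osteoblasts, and both families are studied in fibrosis and in skeletal development. miR-199a-3p is also abundant in platelets. miR-214-3p is known for restraining osteoblast activity, miR-199a-5p for targeting Cav1 in fibroblasts, and miR-199a-3p for targeting Mtor.

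The mature sequences were taken from RefSeq on GRCm38.p6, which held 5 of the 6 names and not mmu-miR-199b-5p. They are shown because the 3p arms that carry most of the counts differ in whether their sequences can be told apart. Capitals mark the seed, bases 2 to 8.
miR-199a-3p: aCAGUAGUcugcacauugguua
miR-199b-3p: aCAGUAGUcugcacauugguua
miR-199a-5p: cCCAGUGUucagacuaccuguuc
miR-214-3p: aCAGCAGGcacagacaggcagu
miR-214-5p: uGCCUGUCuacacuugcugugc

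miR-199a-3p and miR-199b-3p were identical over all 22 bases. The count rows with these names therefore divide reads of 1 sequence, and each row on its own is uncertain as a measure of its gene. Their seed, CAGUAGU, was found in no other of the 1679 mature names in RefSeq. The seed of miR-214-3p, CAGCAGG, was shared with miR-761, which was not among the tested miRNAs. The seeds of miR-199a-5p and miR-214-5p were found in no other of these names, among which miR-199b-5p is missing, so that a seed it may share with miR-199a-5p was not counted.

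The members came from 4 hairpins on 3 chromosomes. Mir199a-2 (chr1:162217814-162217923, plus strand) and Mir214 (chr1:162223368-162223477, plus strand) lay 5444 bases apart in Dnm3os, a noncoding RNA gene annotated as antisense to Dnm3. Mir199a-2 overlapped an exon in all 3 Dnm3os transcripts that span it, and Mir214 in both of the 2 that span it. Mir199a-1 (chr9:21496495-21496564, minus strand) lay in introns of Dnm2 and Mir199b (chr2:32318460-32318569, plus strand) in introns of Dnm1, each on the strand opposite to the dynamin gene. Every miR-199 hairpin was thus placed opposite to a gene for dynamin, the GTPase that pinches vesicles from membranes.

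**Figure D1:**
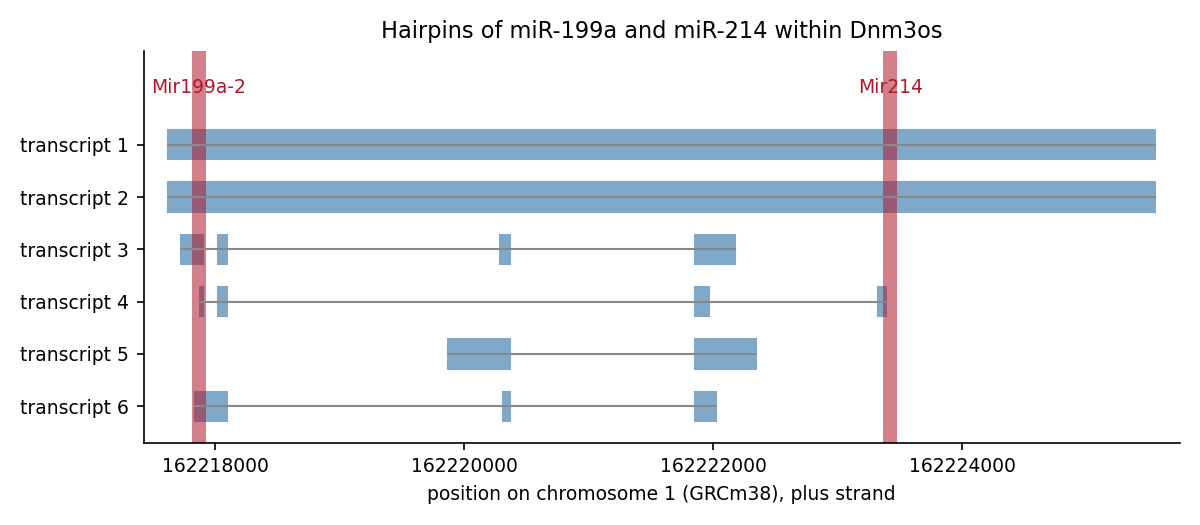
Map of Dnm3os on chromosome 1 of GRCm38, with position in bases on the horizontal axis, 1 annotated transcript per line, exons as blue blocks, introns as grey lines and the hairpins as red bands. Mir199a-2 and Mir214 both lie within the same gene, 5444 bases apart.

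The hairpins are shown with the mature arms that RefSeq names in capitals, to display the arms that each locus shares with another.
Mir199a-1: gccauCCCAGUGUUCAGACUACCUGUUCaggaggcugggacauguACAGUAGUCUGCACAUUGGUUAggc
Mir199a-2: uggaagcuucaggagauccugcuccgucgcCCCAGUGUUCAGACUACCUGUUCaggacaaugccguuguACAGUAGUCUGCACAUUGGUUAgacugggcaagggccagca
Mir199b: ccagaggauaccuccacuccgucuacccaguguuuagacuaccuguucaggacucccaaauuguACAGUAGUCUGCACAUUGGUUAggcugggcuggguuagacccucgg
Mir214: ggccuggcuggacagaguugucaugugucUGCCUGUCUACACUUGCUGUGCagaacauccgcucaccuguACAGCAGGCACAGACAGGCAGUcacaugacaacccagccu

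The miR-199-3p sequence occurred in 3 hairpins and the miR-199a-5p sequence in 2, whereas that of miR-214-3p occurred in 1. Among the members, a count of miR-214-3p can be assigned to a single locus, and a count of a miR-199a arm cannot.

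Across all 24 libraries miR-199a-3p was the most abundant of the 6, with a mean of 2150 CPM, rank 67 in the table. miR-214-3p followed with 425 CPM and miR-199b-3p with 413 CPM, at ranks 104 and 109. miR-199a-5p had 169 CPM at rank 140. The mature arms are 22 or 23 bases long, so that no scaling by length was applied. The difference between miR-214-3p and miR-199b-3p was far below the spread of either between libraries, with SDs of 307 and 283 CPM. Their order also turned between groups. By group mean miR-199b-3p was above miR-214-3p in Control (484 against 298 CPM) and S6h (686 against 390 CPM). It was below miR-214-3p in S24h (185 against 648 CPM) and S72h (295 against 364 CPM).

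The 5p arms of Mir199b and Mir214 were rare. miR-199b-5p had 25 counts in all and was present in 4 of 24 libraries, none of them Control, with a highest level of 135 CPM from 9 counts in S24h replicate 4. miR-214-5p had 28 counts in 5 libraries, none of them S24h, with a highest level of 76.8 CPM from 10 counts in Control replicate 5. No fold change is given for these rows, because a difference between groups was not detectable at this depth.

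The 3p arm of miR-199, the form also carried by platelets, was followed first. In Control, miR-199a-3p had a lowest level of 1007 CPM, a median of 2581 CPM and a highest of 4623 CPM. In S6h the lowest, median and highest levels were 2076, 3575 and 5036 CPM. In S24h they were 511, 604 and 1789 CPM. The S24h libraries formed the low end: 4 of the 6 lay below all Control libraries, while replicates 2 and 3 reached into the Control range and none reached the S6h range. In S72h the levels had a lowest of 222 CPM in replicate 2, a median of 1856 CPM and a highest of 2601 CPM, and overlapped those of every other group.

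By mean level the groups ranked S6h with 3544 ± 1372 CPM (SD, n = 6), Control with 2556 ± 1227 CPM, S72h with 1613 ± 950 CPM and S24h with 886 ± 526 CPM. Neighbours in that order differed by less than the SD of the more variable group. In the fit across all miRNAs, miR-199a-3p was lower in S24h than in Control by a log2 fold change of -1.66 ± 0.45 (SE, n = 6 per group; edgeR adjusted p = 0.0122), with all 6 S24h libraries under the Control median. A call required an adjusted p below 0.05 together with a fold of 1.5 or more, and it was the only one of the 4 tested members called there. That rule called 11.9% of all tested miRNAs in this comparison, and 7.94% as lower in S24h. The calls were split into 20 lower and 10 higher, into 19 and 18 with RLE factors, 17 and 23 with upper quartile factors and 20 and 17 with column totals, and miR-199a-3p was called lower with each. A share of 1 in 4 says nothing particular of the members at such a background. Where the test itself required a fold above 1.5, the adjusted p was 0.0575 and the call ended.

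Against S6h, miR-199a-3p was lower in S24h by a log2 fold change of -2.26 ± 0.45 (SE, n = 6 per group; edgeR adjusted p = 0.000491). miR-199b-3p, counted from the same sequence, was lower by -2.13 ± 0.54 (SE; edgeR adjusted p = 0.00476). These were 2 of the 4 tested members, in a comparison in which 20.2% of all tested miRNAs were called and 13.9% were called lower in S24h. That was 35 lower and 16 higher, against 21 and 22 with RLE factors, 20 and 23 with upper quartile factors and 18 and 19 with column totals, and both members were called lower with each. For both members the S24h and S6h levels did not overlap, which held in that direction for 5.56% of the tested miRNAs.

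The reads of a vesicle preparation give shares of a library. Fewer vesicles that carry a miRNA and fewer copies in each vesicle cannot be told apart in them. The paper also warns that the precipitation may bring along miRNAs carried by lipoproteins. The reads do not separate these from vesicle cargo. Scaling also moved the middle of the table. Over all miRNAs tested, the median log2 fold change in S24h against Control was -0.21 with TMM factors, -0.06 with RLE factors, -0.03 with column totals and 0.08 with upper quartile factors. The log2 fold change of miR-199a-3p stayed between -1.69 and -1.39 over the alternatives, below each of those medians.

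The row of miR-199b-3p ran in parallel at a lower level. Its lowest, median and highest levels were 213, 443 and 891 CPM in Control, and 370, 640 and 1066 CPM in S6h. They were 78.7, 157 and 351 CPM in S24h, and 39.1, 286 and 546 CPM in S72h. As for miR-199a-3p, S24h was low and S72h overlapped every other group, and all 6 S24h libraries lay under the Control median. The log2 fold change in S24h against Control was -1.49 ± 0.53 (SE, n = 6 per group; edgeR adjusted p = 0.0623), which did not pass the threshold.

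**Figure D2:**
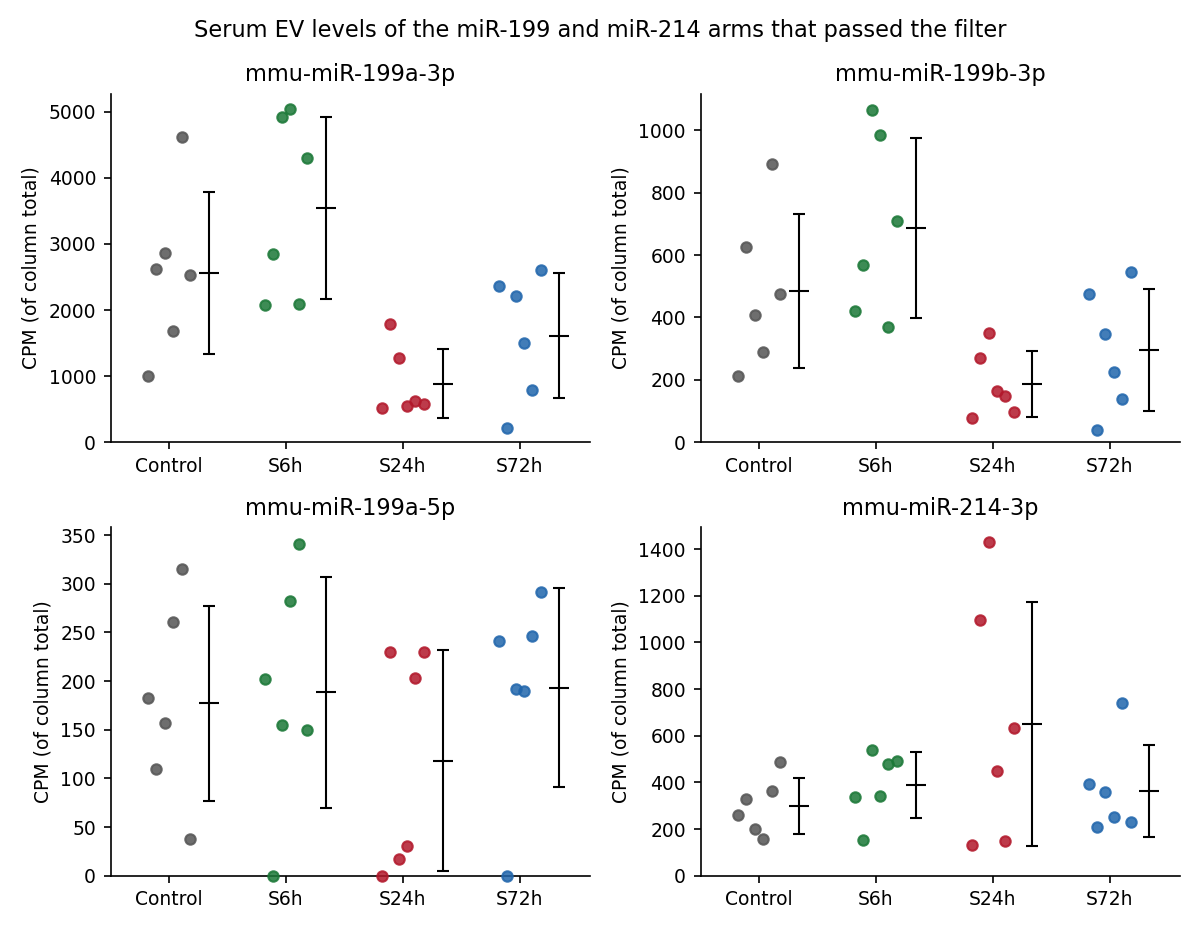
Levels in CPM of column totals (vertical axes) of the 4 tested members in Control, S6h, S24h and S72h, with 1 point per library and the mean ± SD of 6 libraries beside them. For mmu-miR-199a-3p the S24h points lie between 511 and 1789 CPM, under all S6h points, whereas for mmu-miR-214-3p the S24h points spread from 131 to 1429 CPM.

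Because the sequences are identical, the share of miR-199b-3p in the counts of both rows describes how reads of 1 sequence were divided. Over all libraries it was 16.2% (95% exact Clopper-Pearson interval 15.5% to 16.9%; 1691 of 10467 counts). In single libraries it ranged from 12.5% in Control replicate 3 (interval 9.04% to 16.7%, 39 of 312 counts) to 23.4% in S24h replicate 4 (interval 12.3% to 38.0%, 11 of 47 counts). The interval of each of the 24 libraries held the pooled share. Group means were 16.0% ± 2.3 in Control, 16.1% ± 1.3 in S6h, 17.5% ± 4.5 in S24h and 15.1% ± 1.7 in S72h (SD, n = 6). The division between the rows thus differed between libraries by no more than counting error allows, and the rows carry 1 measurement rather than 2. How reads that fit several loci were counted is not stated.

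**Figure D3:**
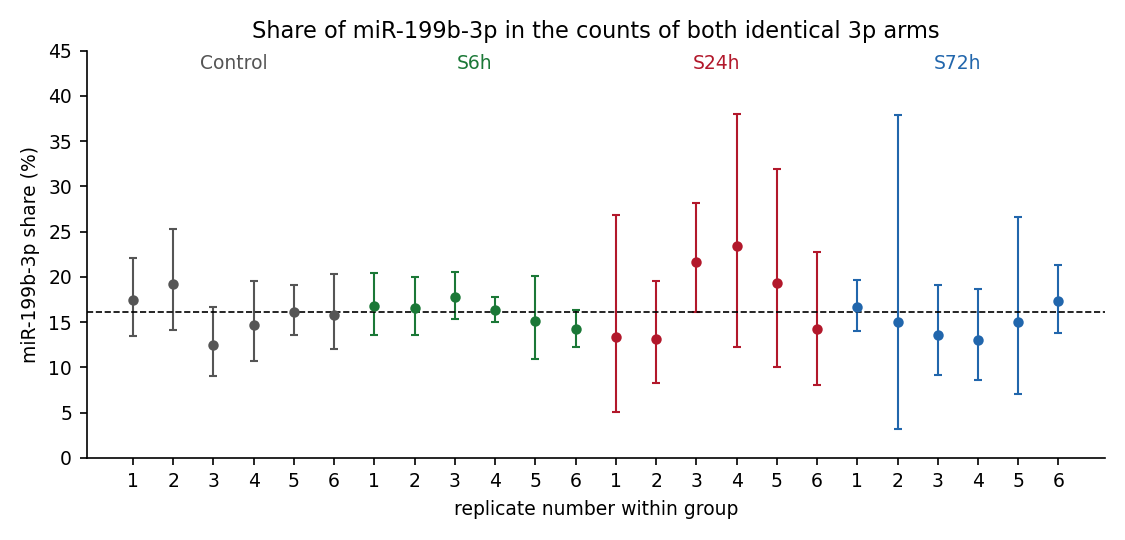
Share of mmu-miR-199b-3p in the counts of both identical 3p arms, in percent on the vertical axis, for each of the 24 libraries, with exact 95% intervals as bars and replicate numbers by group on the horizontal axis. The dashed line is the pooled share of 16.2%, and every bar crosses it.

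Summed over both rows, the miR-199-3p sequence had a mean of 3040 ± 1461 CPM in Control (SD, n = 6), 4230 ± 1653 CPM in S6h, 1072 ± 614 CPM in S24h and 1908 ± 1142 CPM in S72h.

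miR-199a-5p comes from the same hairpins as miR-199a-3p. Its lowest, median and highest levels were 38.1, 170 and 315 CPM in Control and 0, 179 and 341 CPM in S6h. In S24h they were 0, 117 and 230 CPM, and in S72h 0, 217 and 291 CPM. The groups overlapped throughout, and 1 library of each surgery group had no count: S6h replicate 2, S24h replicate 1 and S72h replicate 2. A count of 0 allowed up to 18.5, 39.3 and 39.1 CPM in these libraries. The S24h libraries fell into 3 with 203 to 230 CPM and 3 with only 0 or 2 counts each.

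The log2 fold change of miR-199a-5p in S24h against Control was -0.79 ± 0.93 (SE, n = 6 per group; edgeR adjusted p = 0.631). The fitted value of its partner arm, -1.66, lay within 1 SE of it, so that a difference between the arms was not detectable at this depth. Within libraries, the log2 ratio of the miR-199-3p counts to the miR-199a-5p counts was 4.17 ± 1.26 in Control (SD, n = 6), 5.21 ± 2.57 in S6h, 3.93 ± 2.13 in S24h and 3.51 ± 1.12 in S72h. The 3p arm exceeded the 5p arm in every library, and the group means differed by less than the largest SD.

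miR-214-3p, processed from the same host transcript as the arms of Mir199a-2, was not low in S24h. Its lowest, median and highest levels were 156, 293 and 486 CPM in Control and 154, 409 and 540 CPM in S6h. In S24h they were 131, 541 and 1429 CPM, and in S72h 209, 306 and 738 CPM. The S24h libraries were the most uneven: replicates 2, 3 and 6 lay above all Control libraries with 1098, 1429 and 633 CPM, while replicates 1 and 5 lay below all of them with 131 and 149 CPM. All groups overlapped.

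By mean level the groups ranked S24h with 648 ± 523 CPM (SD, n = 6), S6h with 390 ± 142 CPM, S72h with 364 ± 197 CPM and Control with 298 ± 120 CPM, and neighbours differed by less than the SD of the more variable group. The log2 fold change in S24h against Control was 0.96 ± 0.51 (SE, n = 6 per group; edgeR adjusted p = 0.202), with 4 of 6 S24h libraries above the Control median. In S24h against S6h it was 0.50 ± 0.50 (SE; edgeR adjusted p = 0.564). Neither passed the threshold.

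The ratio of the 3p arms within a library does not depend on how libraries are scaled. The log2 ratio of miR-199-3p counts to miR-214-3p counts had lowest, median and highest values of 2.23, 3.45 and 4.0 in Control. They were 2.35, 3.40 and 4.44 in S6h, 0.11, 0.77 and 2.32 in S24h, and 0.31, 2.78 and 3.74 in S72h. All S24h values lay below all S6h values, and S24h overlapped Control only through S24h replicate 5 and Control replicate 1. In S72h, replicates 2 and 5 had ratios like those of S24h and the other 4 libraries had ratios within the Control range.

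**Figure D4:**
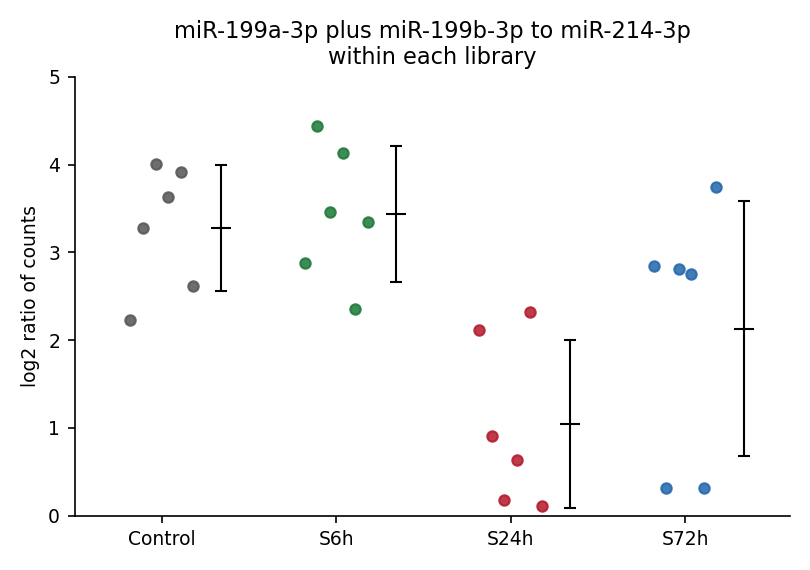
Log2 ratio of the summed mmu-miR-199a-3p and mmu-miR-199b-3p counts to the mmu-miR-214-3p counts (vertical axis), with 1 point per library and mean ± SD of 6 libraries for each group. The S24h points lie between 0.11 and 2.32 and the S6h points between 2.35 and 4.44.

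The mean log2 ratio in S24h was lower than in Control by 2.23 on the log2 scale, a difference of -2.23 (exact two-sided permutation test over every assignment of 6 libraries against 6, p = 0.00433; adjusted p = 0.0649 over 30 ratio comparisons). Against S6h the difference was -2.39 (exact permutation p = 0.00216, the smallest this design can give; adjusted p = 0.0649). All 6 S24h libraries lay below the Control median and below the S6h median. Neither passed an adjusted p of 0.05. With 30 comparisons adjusted together, a comparison at the smallest possible p could not pass by itself. Passing therefore also depended on the p-values of the other comparisons. The members were named with their levels known, so these values describe the libraries. With a pseudocount of 3 in place of 0.5 both adjusted p-values were 0.0325 and passed. Without S24h replicate 5 the differences were -2.49 and -2.65, again with an adjusted p of 0.0325. The other 11 of 12 fits with 1 library left out did not pass in either comparison, with adjusted p-values of up to 0.162 against Control and 0.130 against S6h.

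In the edgeR fit the remaining comparisons had no called member. In S6h against Control edgeR called 0 of 4 tested members, beside 0% of all tested miRNAs. An unadjusted p under 0.05 was found for 0 members and 9 of 252 miRNAs. DESeq2 and limma-voom called 0 members and 0 of all miRNAs. The log2 fold changes there were 0.60 ± 0.43 (SE) for miR-199a-3p and 0.47 ± 0.51 for miR-214-3p. In S72h against Control edgeR called 0 of 4 members, beside 3.57% of all miRNAs. There 0 members had an unadjusted p under 0.05, beside 48 of 252 miRNAs. DESeq2 and limma-voom called 0 members, beside 27 and 10 of all miRNAs. miR-199a-3p had -0.48 ± 0.43 and miR-214-3p 0.38 ± 0.51.

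By mean level the 3p arms of miR-199 in S72h stood between S24h and S6h, although S72h replicate 2 lay below every S24h library. In S72h against S6h edgeR called 0 of 4 members, beside 9.92% of all miRNAs. An unadjusted p under 0.05 was found for 2 members, beside 53 of the 252 miRNAs. DESeq2 called 0 members, beside 36 of all miRNAs, and limma-voom called 1, beside 38. That member was miR-199a-3p, with a log2 fold change of -1.08 ± 0.44 (SE; edgeR adjusted p = 0.110) in the main model and -1.32 (adjusted p = 0.0476) with limma-voom. In S72h against S24h edgeR called 0 of 4, beside 0.397% of all miRNAs. Here 1 member had an unadjusted p under 0.05, beside 29 of 252 miRNAs. DESeq2 and limma-voom called 0 members, beside 4 and 0 of all miRNAs. miR-199a-3p had 1.17 ± 0.44 (SE; edgeR adjusted p = 0.259), with 5 of 6 S72h libraries above the S24h median. These comparisons share libraries, so that their values are not independent.

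Over the 24 libraries, levels of the 4 tested members as log2(CPM + 4) were correlated in 6 pairs. miR-199a-3p and miR-199b-3p, the identical arms, had Pearson r = 0.97 and Spearman rho = 0.96 (permutation p = 1e-05 each, the smallest 100000 resamples can give; adjusted p = 6e-05), and r = 0.96 without the 2 libraries farthest from the median of miR-199a-3p. The pair is 1 sequence, so this is no relation between different miRNAs. miR-199a-3p and miR-214-3p had r = 0.13 (permutation p = 0.547, adjusted p = 0.547) and rho = 0.10 (permutation p = 0.653, adjusted p = 0.653), and r = -0.10 without the same 2 libraries. Within groups r was 0.40 in Control, 0.26 in S6h, 0.75 in S24h and 0.12 in S72h (n = 6 each), and it was 0.36 after group means were subtracted.

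The arms of 1 duplex were compared next. miR-199a-3p and miR-199a-5p had r = 0.45 (permutation p = 0.0263, adjusted p = 0.0789) and rho = 0.24 (permutation p = 0.251, adjusted p = 0.594). Without the 2 libraries farthest from the median of miR-199a-3p r was 0.06, and after group means were subtracted it was 0.46. Within groups r was 0.01 in Control, 0.09 in S6h, 0.29 in S24h and 0.89 in S72h (n = 6 each). The S72h value includes replicate 2, which was lowest in both arms of its group, with 222 CPM of miR-199a-3p and a miR-199a-5p count of 0. miR-199a-5p and miR-214-3p had r = 0.25 (permutation p = 0.238, adjusted p = 0.357) and rho = 0.16 (permutation p = 0.450, adjusted p = 0.594), with r = -0.10 without the 2 libraries farthest from the median of miR-199a-5p. For this pair r within groups was -0.62 in Control, 0.86 in S6h, 0.29 in S24h and 0.48 in S72h (n = 6 each). After group means were subtracted it was 0.35. miR-199b-3p had r = 0.41 with miR-199a-5p (permutation p = 0.0427, adjusted p = 0.0854) and r = 0.17 with miR-214-3p (permutation p = 0.436, adjusted p = 0.523), and rho = 0.17 and 0.15 (permutation p = 0.413 and 0.495, adjusted p = 0.594 each). With miR-199a-5p r was 0.47 without the 2 libraries farthest from the median of miR-199a-5p, and with miR-214-3p it was -0.08 without those farthest in miR-199b-3p.

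Among 250 other tested miRNAs, the levels most like those of miR-199a-3p over the 24 libraries were those of miR-27b-3p (r = 0.84), miR-133a-3p (r = 0.78), miR-200a-3p (r = 0.75), miR-434-3p (r = 0.74) and miR-106b-3p (r = 0.73). miR-133a-3p is a skeletal muscle miRNA, miR-200a-3p an epithelial one and miR-434-3p a member of the Dlk1-Dio3 cluster. miR-199a-5p was at place 51 and miR-214-3p at place 126 of the 250. The levels most like those of miR-214-3p were those of miR-1981-5p (r = 0.57), miR-181a-5p (r = 0.53), miR-181d-5p (r = 0.52), miR-330-3p (r = 0.52) and miR-362-3p (r = 0.47), and miR-199a-3p was at place 99. These libraries share groups and differ in depth, and no test is attached to the ranking.

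The label given to the members, mesenchymal and platelet, was set beside marker lists. Their called miRNAs are to be read beside the share of all tested miRNAs called, whose split between higher and lower changed with the scaling factors as given above. Of 15 mesenchymal miRNAs 14 were tested, with miR-21a-5p the most abundant at a mean of 68472 CPM and none at 0 in every library. In S24h against Control 1 rose, miR-145a-5p with a log2 fold change of 1.19 ± 0.31 (SE; edgeR adjusted p = 0.0111), and 2 fell, among them miR-143-3p with -3.25 ± 0.51 (SE; edgeR adjusted p = 9.3e-05). Their median was -0.61, beside -0.21 for all tested miRNAs, of which 11.9% were called, 20 lower and 10 higher. In S24h against S6h 1 rose and 5 fell, with a median of -0.85 beside -0.23, and 20.2% of all tested miRNAs were called, 35 lower and 16 higher. The summed level of the list had lowest, median and highest values of 56791, 120260 and 165260 CPM in Control and 81393, 103756 and 120055 CPM in S24h. It was 80468, 110556 and 141372 CPM in S6h and 48904, 96774 and 143439 CPM in S72h. The list thus held called members of both directions in S24h, as did the whole table, and its summed levels overlapped in all groups. miR-21a-5p alone had a mean of 63353 CPM in Control, 56079 CPM in S6h, 78454 CPM in S24h and 76002 CPM in S72h, beside list means of 114115, 113998, 103890 and 100625 CPM. It was the largest part of the sum, but the sum did not follow it. Its mean was higher in S24h and S72h than in Control, and that of the list was lower. miR-143-3p had means of 29994 CPM in Control, 35299 CPM in S6h, 3596 CPM in S24h and 5458 CPM in S72h. The overlap of the sums thus says little of the single members of the list.

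All 10 platelet miRNAs were tested, again led by miR-21a-5p, which both lists hold. In S24h against Control 1 fell, miR-22-3p with -1.69 ± 0.37 (SE; edgeR adjusted p = 0.00322), beside 7.94% of all tested miRNAs called lower, and the median was -0.21, the same as for all tested miRNAs. In S24h against S6h 1 rose, miR-191-5p, and 3 fell, miR-22-3p, miR-24-3p and miR-223-3p, with a median of -0.49 beside -0.23 and with 20.2% of all tested miRNAs called, 13.9% as lower. The summed level was 108464, 144316 and 176575 CPM in Control, 112471, 143747 and 163857 CPM in S6h, 131852, 172100 and 188251 CPM in S24h and 105358, 176002 and 220275 CPM in S72h, as lowest, median and highest, and the groups overlapped.

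Set against miR-223-3p, a miRNA of platelets and myeloid cells, the log2 ratio of miR-199-3p was -0.39 ± 0.37 in Control (SD, n = 6), -0.03 ± 0.39 in S6h, -1.22 ± 0.89 in S24h and -0.77 ± 1.71 in S72h. In S24h it was lower than in S6h by a difference of -1.20 (exact permutation p = 0.0216; adjusted p = 0.216), and the difference from Control was -0.84 (exact permutation p = 0.0606; adjusted p = 0.354). For miR-214-3p the log2 ratio to miR-223-3p was -3.67 ± 0.74 in Control and -2.27 ± 1.61 in S24h, a difference of 1.40 (exact permutation p = 0.0844; adjusted p = 0.354). miR-223-3p was itself lower in S24h than in S6h, by a log2 fold change of -1.06 ± 0.33 (SE; edgeR adjusted p = 0.0226), so that the ratio of miR-199-3p to it differed by less than the level of miR-199a-3p did. None of the ratio comparisons passed an adjusted p of 0.05.

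Markers of other tissues moved between the same groups, and their part in the members' values was not tested. The 6 skeletal muscle miRNAs, 5 of them tested and miR-208b-3p at 0 in all libraries, had summed levels of 34151, 53278 and 90196 CPM in Control, 60182, 117926 and 265491 CPM in S6h, 15682, 33230 and 43550 CPM in S24h and 6442, 27754 and 237383 CPM in S72h, as lowest, median and highest. Their most abundant member was miR-1a-3p, and 3 of 5 fell in S24h against S6h, beside 13.9% of all tested miRNAs called lower. The S24h and S6h sums did not overlap. Among single tested miRNAs, 5.56% were lower in S24h without overlap. The muscle miRNA miR-133a-3p had r = 0.78 with miR-199a-3p over the 24 libraries and r = 0.76 after group means were subtracted. No other miRNA of the muscle list, miR-1a-3p included, was among the 5 most like miR-199a-3p. The closest of those was miR-27b-3p (r = 0.84).

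Without the 3 libraries highest in the muscle list (S6h replicates 2 and 4 and S72h replicate 1), an alternative chosen after seeing the data, miR-199a-3p remained called in S24h against S6h with a log2 fold change of -1.96 (edgeR adjusted p = 0.00815) and in S24h against Control with -1.58 (adjusted p = 0.0204). miR-199b-3p had -1.83 in S24h against S6h (adjusted p = 0.0517) and was no longer called, which left 1 called member in place of 2. All miRNAs called in that comparison numbered 22 in place of 51, and in S24h against Control 29 in place of 30. The S6h libraries kept still had at least 60182 CPM in the muscle list, above the highest S24h library with 43550 CPM, so that this fit does not remove the difference in muscle miRNAs between the groups.

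Of 8 erythroid miRNAs, led by miR-486b-5p, all were tested and 5 fell in S24h against Control, with a median of -1.24, beside 7.94% of all tested miRNAs called lower and a median of -0.21. Their summed level was 137436, 177227 and 237456 CPM in Control, 98881, 154360 and 173653 CPM in S6h, 54179, 89590 and 155324 CPM in S24h and 61768, 89915 and 201895 CPM in S72h. Leaving them out of the scaling factors kept the direction and side of the threshold of each member in S24h against Control and against S6h. Of 4 liver miRNAs, led by miR-122-5p, 3 were tested and 0 called in S24h against Control, with a median of -1.80 beside -0.21. Their summed level was 6004, 77228 and 171007 CPM in Control, 4650, 15965 and 31689 CPM in S6h, 8897, 19930 and 59797 CPM in S24h and 5675, 12345 and 309361 CPM in S72h. In Control 3 libraries had at most 14723 CPM and 3 at least 139733 CPM, and S72h replicate 4 was the highest of all libraries. Of 6 cartilage and bone miRNAs 3 were tested, miR-675-3p and miR-675-5p were at 0 in all libraries, and miR-140-3p rose in S24h against S6h by a log2 fold change of 0.95 ± 0.31 (SE; edgeR adjusted p = 0.0324). In the same comparison 1 of 6 leukocyte miRNAs rose, miR-150-5p, and 1 of 4 endothelial miRNAs, miR-221-3p, with 20.2% of all tested miRNAs called, 16 of them higher. The summed endothelial level was 9424, 14732 and 21954 CPM in Control, 9775, 12422 and 18271 CPM in S6h, 20692, 22988 and 36849 CPM in S24h and 15498, 22379 and 23502 CPM in S72h. Its S24h and S6h levels did not overlap, but the list's median log2 fold change there was 0.06, beside -0.23 for all tested miRNAs. The share of single miRNAs without overlap was counted only for lower levels in S24h.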

How the data were processed

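Per the methods of the study, the authors trimmed small RNA reads with cutadapt and aligned them to GRCm38 with Bowtie. They selected inserts of mature miRNA size, assigned them to miRBase entries by featureCounts and normalized expression as CPM. The deposited values are whole-number counts per mature miRNA without normalization. The submitters' processing notes name mm10 and SAMtools, as do the methods. All 24 columns were assigned to mice through the labels.

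CPM were computed from column totals. R 4.3.3 with edgeR 4.0.16 was used to fit 1 quasi-likelihood model to all 4 groups after TMM scaling, with Benjamini-Hochberg adjustment over 252 miRNAs. Alternatives used DESeq2 1.42.0, limma 3.58.1, other scalings, filters and groupings of libraries, and each library left out. Ratios took a pseudocount of 0.5. Correlations took a pseudocount of 4 and were computed in Python 3.11.15 with SciPy 1.17.1. Hairpin positions and host transcripts came from Gencode M21.

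The members and lists were chosen with earlier results of these data known. Beside the members, up to 4 miRNAs per list with the highest mean CPM, and the 5 most like miR-199a-3p and miR-214-3p, could be named. Named beside these are miR-223-3p, the reference of 2 ratios, whose fold change was added after its values were seen, miR-761 for its seed, and list miRNAs at 0 in all libraries.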

Additional observations from a re-analysis of the deposited data

Results flagged for a closer look

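The change of miR-199a-3p against Control differed between S24h and S6h, by a log2 fold change of -2.26 between these groups in the edgeR fit (adjusted p = 0.000491, lower in 6 of 6 S24h libraries than the S6h median). For miR-199b-3p, which is the same sequence, the difference was -2.13 (edgeR adjusted p = 0.00476, 6 of 6 libraries).

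Single libraries stood apart from their groups in 5 of 39 groups of values examined, where about 1 in 20 is flagged by chance. The gap to the nearest library, as a share of the group's range, was 0.650 for the miR-199a-5p level in S72h replicate 2, which had a count of 0, and 0.654 for the miR-214-3p level in S72h replicate 5, the highest of its group at 738 CPM. For S6h replicate 2, which had a miR-199a-5p count of 0, it was 0.670 for the log2 ratio of miR-199-3p to miR-199a-5p and 0.722 for that of miR-214-3p to miR-199a-5p. For S72h replicate 2 it was 0.650 for the log2 ratio of miR-214-3p to miR-199a-5p. Of these values, 4 thus rest on a miR-199a-5p count of 0.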

How the results depend on the processing

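Of 354 log2 fold changes of single members under the alternatives, 339 kept their direction and side of the threshold, as did 558 of 576 with 1 library left out. For S24h against Control, miR-199a-3p ranged from -1.69 to -1.39, and a test of a fold above 1.5 left its value at -1.66 but called 0 members (fewer pass by construction). For S72h against S6h, limma-voom called 1 member in place of 0, miR-199a-3p with -1.32. It also called 38 of all miRNAs in place of 25, and the cause was not tested. Without the 3 libraries highest in the muscle list, S24h against S6h had 1 called member in place of 2, with fewer libraries. All miRNAs called there numbered 22 in place of 51.

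Directions turned only in values far from the threshold. For miR-199a-5p in S6h against Control (0.14) DESeq2 gave -0.0036, limma-voom -0.37, RLE factors -0.0030 and the replicate block -0.0032, and leaving out libraries gave -0.12 to 0.53. In S72h against Control (0.23) limma-voom gave -0.091. In S72h against S6h (0.10) the fit without the 3 muscle-high libraries gave -0.012, and leaving out libraries -0.072 to 0.47. For miR-214-3p in S72h against S6h (-0.09) DESeq2 gave 0.030, RLE factors 0.031, upper quartile factors 0.18, no filter 0.0038, a mean of at least 100 CPM 0.028 and leaving out miR-122-5p and miR-1a-3p 0.083, with -0.21 to 0.22 when libraries were left out. The causes were not tested.

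The log2 ratio of miR-199-3p to miR-214-3p in S24h was -2.22 against Control and -2.42 against S6h with a pseudocount of 3, and both passed. Leaving out libraries gave -2.49 to -2.05 and -2.65 to -2.19, and both passed only without S24h replicate 5. Without the muscle-high libraries it was -1.97 against S6h (adjusted p = 0.143). In S6h against Control (0.16) it was -0.27 without the muscle-high libraries and -0.052 to 0.37 with libraries left out. The ratio of miR-199-3p to miR-199a-5p in S24h against Control (-0.23) was 0.20 with a pseudocount of 0.1 and -0.75 to 0.24 with libraries left out, and in S72h against S24h (-0.43) -0.90 to 0.087. The ratio of miR-214-3p to miR-199a-5p ranged from -0.25 to 1.01 in S72h against Control (0.49) and from -1.13 to 0.39 in S72h against S6h (-0.39), where it was 0.34 without the muscle-high libraries. The ratio of miR-199-3p to miR-223-3p in S72h against Control (-0.39) ranged from -0.81 to 0.17.

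Over all miRNAs the called number depended on the setting: 11 to 50 in S24h against Control (30), 22 to 66 in S24h against S6h (51), 0 to 27 in S72h against Control (9), 1 to 38 in S72h against S6h (25), 0 to 10 in S72h against S24h (1) and 0 to 2 in S6h against Control (0). With 1 library left out it was 20 to 50 in S24h against Control, 33 to 51 in S24h against S6h, 1 to 18 in S72h against Control, 15 to 32 in S72h against S6h, 1 to 3 in S72h against S24h and 0 in S6h against Control. In S72h against Control 15 of 24 such fits moved the number by more than 1.5 times, as did 1 in S24h against Control, without S24h replicate 2 (50), 1 in S24h against S6h, without S6h replicate 5 (33), 4 in S72h against S6h and 5 in S72h against S24h.

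Over all comparisons, replicate numbers gave little sign of pairing the mice: 6 of 36 same-numbered pairs correlated above 0.1 (r from -0.254 to 0.148), and 7 correlated best with their own number. In S6h against Control replicates 1, 3 and 5 did so (r = 0.14, 0.07 and 0.07), and replicates 2, 4 and 6 did not. The pooled counts do not exclude pairing there. With the replicate number as a block, edgeR called 1 member in S24h against Control and 2 in S24h against S6h, as without it, and all miRNAs called in S72h against Control numbered 1 in place of 9.

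Depth limited the 5p arms most. miR-199a-5p rested on a median of 19 counts per library, and miR-199b-5p and miR-214-5p on 25 and 28 counts in all.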
